A study of Mus musculus with 10 samples.

Results

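Complement is a cascade of plasma and membrane proteins, and 9 of its genes are described here in mouse hearts after lipopolysaccharide (LPS): C1qa, C1qb, C1qc, C2, C3, C4b, Cfb, Serping1 and C3ar1. They were taken by name, and all 9 had a row among the 30074 genes of the deposited table. LPS is a component of the outer membrane of Gram-negative bacteria that activates Toll-like receptor 4 and is injected into mice as a model of sepsis, here to study the heart. Artesunate is an artemisinin derivative used against malaria, and the comparison asks how hearts of mice given it around the LPS challenge differ from hearts of mice that were not. There were 5 libraries of the LPS+ART group and 5 of the LPS+Vehicle group, each from heart RNA of wild-type male C57BL/6 mice of 8 to 12 weeks and about 25 g. All mice of both groups received LPS by intraperitoneal injection. The LPS+ART mice received artesunate at 50 mg/kg by the same route, 10 min before LPS and a second time 4 h after it, and the LPS+Vehicle mice received no artesunate. Heart function was assessed 24 h after LPS, and the labels give no separate time for the RNA, no LPS dose and no name for the vehicle. Mice without LPS and mice with artesunate alone belong to the design but were not analysed here, so no value below is a level in an unchallenged heart.

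The classical pathway of complement starts when C1q, a bouquet of A, B and C chains encoded by C1qa, C1qb and C1qc, binds antibody or other surface patterns and switches on the protease C1r, which activates C1s. C1s cleaves C4 and C2, whose fragments join into an enzyme that cleaves C3, the protein on which all routes of activation meet, while the alternative pathway builds a like enzyme from C3b and factor B (Cfb). C1 inhibitor, encoded by Serping1, blocks C1r and C1s, and the C3a fragment is read by the receptor C3aR (C3ar1), which myeloid cells carry. Most plasma complement is made in the liver, but C1q comes mainly from macrophages and other myeloid cells, and fibroblasts and endothelial cells also make C3, C4 and C1 inhibitor.

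The stretch before the transcription start is shown for the members that RefSeq's promoter table of GRCm38.p6 holds, C1qb, C1qc, C3 and C3ar1, to see which motifs the windows hold. They were not chosen by direction. All 4 were lower in LPS+ART hearts in the deposited values, as were all 7 members tested, and for C3 the call depended on scaling between libraries. Each sequence is the 250 bases upstream of the start, 5′ to 3′ on the gene's own strand, which is the minus strand for all 4 genes. Capitals mark matches to any of 6 motifs searched on both strands, so a match on the opposite strand is seen as its reverse complement. C1qb lies at chr4:136886201-136886450, C1qc at chr4:136892915-136893164, C3 at chr17:57228137-57228386 and C3ar1 at chr6:122856158-122856407.
C1qb: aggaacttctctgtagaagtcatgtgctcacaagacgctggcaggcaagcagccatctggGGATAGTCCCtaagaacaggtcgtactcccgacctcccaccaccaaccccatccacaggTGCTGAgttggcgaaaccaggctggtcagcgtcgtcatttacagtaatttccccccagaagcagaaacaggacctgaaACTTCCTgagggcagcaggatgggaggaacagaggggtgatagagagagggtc
C1qc: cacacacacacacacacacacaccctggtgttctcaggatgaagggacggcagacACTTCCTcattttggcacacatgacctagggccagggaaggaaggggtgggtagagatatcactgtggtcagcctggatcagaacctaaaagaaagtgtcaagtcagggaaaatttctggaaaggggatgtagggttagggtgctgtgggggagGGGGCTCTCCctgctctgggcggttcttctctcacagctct
C3: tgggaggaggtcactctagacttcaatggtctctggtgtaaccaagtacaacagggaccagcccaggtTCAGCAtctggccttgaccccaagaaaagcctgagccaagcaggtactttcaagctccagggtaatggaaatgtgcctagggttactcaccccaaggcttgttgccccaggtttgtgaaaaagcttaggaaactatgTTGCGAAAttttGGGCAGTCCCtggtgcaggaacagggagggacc
C3ar1: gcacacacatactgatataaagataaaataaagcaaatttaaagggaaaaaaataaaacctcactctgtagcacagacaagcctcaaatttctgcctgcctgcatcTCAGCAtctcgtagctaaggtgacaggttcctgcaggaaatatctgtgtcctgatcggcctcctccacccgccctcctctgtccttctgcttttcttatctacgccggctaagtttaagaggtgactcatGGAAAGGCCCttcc

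All 4 windows held an NF-kB-like pattern (GGG and CC around a central T, with NN on each side of it), which 15.9% of the 32851 promoters in the table hold in a window of the same length. The nearest to a start was that of C3ar1, 14 to 5 bases upstream, and the farthest was that of C1qb, 190 to 181 bases upstream. The core of the myeloid factor PU.1, AGGAAGT, was found in the C1qb window (53 to 47 bases upstream) and in the C1qc window (195 to 189 bases upstream), and 7.69% of promoters hold it. The core of MAF factors, TGCTGA, was found in the C1qb, C3 and C3ar1 windows and in 16.1% of promoters. The C/EBP-like TTGCNNAA was found in the C3 window, 45 to 38 bases upstream, and 9.56% of promoters hold it. The STAT-type TTCNNNGAA (7.02% of promoters) and the interferon-response-like pattern of GAAA repeated after NN (2.98%) were in none of the 4 windows. No matches overlapped one another, and a match describes letters in the window only.

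The unit of the table is FPKM, which divides the reads of a gene by its length and by the size of the library, without rescaling between libraries. LPS+ART libraries held 30684056 to 36679402 reads, as recovered from it, and LPS+Vehicle libraries held 29980900 to 54222272. Most genes shifted together: the median log2 fold change over the 13314 genes tested was -0.27 as deposited and 0.02 after median-ratio scaling or cyclic loess, so each member below is also read against that shift. Cardiomyocyte markers summed to 7373 to 8487 FPKM in LPS+ART, against 6765 to 7418 FPKM in LPS+Vehicle, as a heart should give, while markers of hepatocytes, adipocytes, T cells and B cells each summed to at most 1.19 FPKM in any library. LPS+ART replicates 3 and 4 stood apart with neutrophil markers summing to 234.2 and 121 FPKM, against at most 52.2 FPKM in the other LPS+ART hearts and 29.0 to 68.7 FPKM in LPS+Vehicle. Most of this was S100a8 and S100a9, at 59.0 and 156 FPKM in replicate 3 and 34.7 and 78.4 FPKM in replicate 4. Retnlg, Cxcr2 and Ly6g were also highest in replicate 3. Csf3r was 1.36 and 1.14 FPKM in replicates 3 and 4, below all LPS+Vehicle hearts (1.81 to 2.20 FPKM), and Mmp8 lay within the LPS+Vehicle range in both. LPS+Vehicle replicate 3 had the highest macrophage marker sum (182 FPKM) and replicate 4 the lowest of its group for both macrophage (89.1 FPKM) and fibroblast markers (363 FPKM). Replicates 2 and 5 of LPS+Vehicle were hard to tell apart: their reads differed with a chi-square of 1.76 per degree of freedom over 14165 genes, against 13.6 to 47.9 for other pairs within a group. Even numbers made up 64.0% of the low read counts (4 or fewer), so the mates of a pair may be counted apart. The chi-square was therefore computed on read pairs, for which sampling noise would lie near 1 or below it. Both libraries were kept, and results with their mean as 1 replicate are given where a call changes.

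The 3 chains of C1q were lower in every LPS+ART heart than in any LPS+Vehicle heart. C1qa (ENSMUSG00000036887) had 18.2, 10.4, 11.6, 8.32 and 19.7 FPKM in LPS+ART replicates 1 to 5, against 51.4, 54.7, 67.0, 40.8 and 55.8 FPKM in LPS+Vehicle replicates 1 to 5. The highest heart with artesunate was thus below the lowest heart without it. C1qb (ENSMUSG00000036905) had 20.4, 18.9, 20.4, 19.9 and 32.1 FPKM in LPS+ART, against 47.1, 50.5, 60.5, 42.7 and 47.7 FPKM in LPS+Vehicle. LPS+ART replicate 5 was higher than the other 4 of its group, and still lower than all hearts without artesunate. C1qc (ENSMUSG00000036896) had 7.14, 4.69, 6.21, 4.45 and 9.94 FPKM in LPS+ART, against 19.5, 19.7, 26.0, 13.2 and 18.2 FPKM in LPS+Vehicle, again with no overlap. C1qa averaged 13.7 ± 5.02 FPKM in LPS+ART and 53.9 ± 9.40 FPKM in LPS+Vehicle (SD, n = 5 each, here and below). C1qb averaged 22.3 ± 5.48 FPKM in LPS+ART and 49.7 ± 6.65 FPKM in LPS+Vehicle, and C1qc averaged 6.49 ± 2.23 FPKM in LPS+ART and 19.3 ± 4.55 FPKM in LPS+Vehicle.

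**Figure D1:**
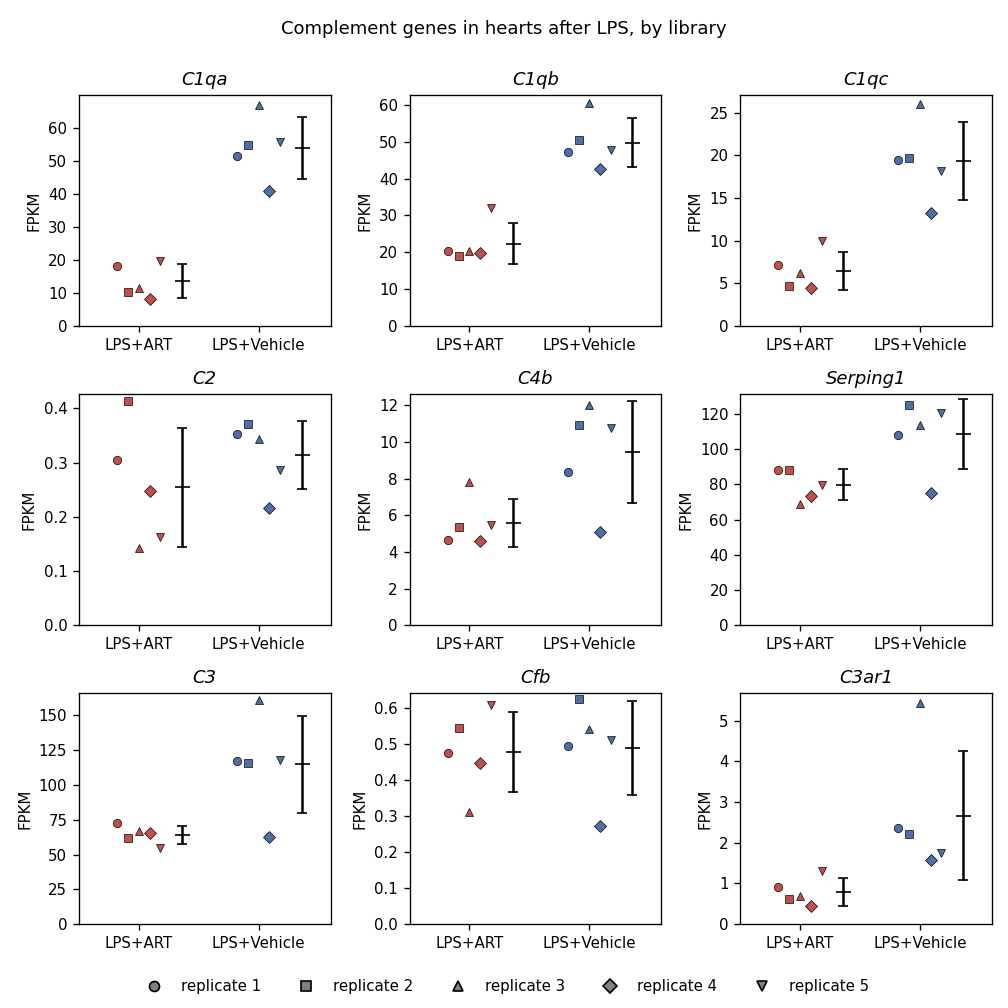
Each panel shows one of the 9 genes, with its FPKM per heart on the y axis, LPS+ART hearts in the left column and LPS+Vehicle hearts in the right, and one marker shape per replicate number. Bars give the mean and SD of 5 libraries. C1qa, C1qb, C1qc and C3ar1 show no overlap, LPS+Vehicle replicate 4 lies among the LPS+ART hearts for C3, C4b and Serping1, and C2 and Cfb overlap throughout.

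Mean C1qa was 3.95-fold lower in LPS+ART hearts, mean C1qc 2.98-fold lower and mean C1qb 2.22-fold lower. The log2 fold change of LPS+ART over LPS+Vehicle, on the log2(FPKM + 1) scale, was -1.96 for C1qa (SE 0.21, limma adjusted p = 1.9e-05 over all genes tested). It was -1.46 for C1qc (SE 0.20, limma adjusted p = 8.9e-05) and -1.14 for C1qb (SE 0.14, limma adjusted p = 4.1e-05). After median-ratio scaling it was -1.58 for C1qa (limma adjusted p = 5.22e-05), -1.10 for C1qc (limma adjusted p = 0.000396) and -0.75 for C1qb (limma adjusted p = 0.000405), and the groups still did not overlap. The values rest on 288 to 751 C1qa reads in each LPS+ART heart and 1271 to 3776 in each LPS+Vehicle heart. In bulk RNA, fewer cells of a type and less RNA per cell cannot be told apart.

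The 3 chains, which assemble in equal number in the C1q protein, did not fall by the same factor. The C1qb/C1qa ratio of FPKM within a library, which a single scaling factor per library leaves as it is, was 1.12, 1.82, 1.75, 2.39 and 1.63 in LPS+ART, against 0.917, 0.924, 0.903, 1.05 and 0.855 in LPS+Vehicle. Every heart with artesunate had relatively more C1qb than every heart without it. The ratio was 1.83-fold higher in LPS+ART, a log2 difference of 0.87 (exact two-sided permutation test over the 10 libraries, p = 0.00794, the smallest it can give, adjusted p = 0.0238 over 12 pairs of members). C1qc/C1qa was 0.391 to 0.535 in LPS+ART, against 0.324 to 0.388 in LPS+Vehicle, 1.35-fold higher in LPS+ART with no overlap (exact permutation test, adjusted p = 0.0238). C1qc/C1qb was 0.2235 to 0.350 in LPS+ART, against 0.309 to 0.429 in LPS+Vehicle, with overlap and an adjusted p of 0.0476 in the exact permutation test that reached 0.0952 when 1 library was left out.

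Markers of macrophages moved with C1q, and so did some markers of other cell types. All 9 tested of 10 pan-macrophage markers were lower in LPS+ART (limma, adjusted p under 0.05), beside 52.9% of all genes, and 5 after median-ratio scaling, beside 30.1% of all genes. The summed level of the list, as deposited, was 48.1 to 77.6 FPKM in LPS+ART, against 89.1 to 182 FPKM in LPS+Vehicle. Most of the sum was Lyz2 and Ctss, and neither was called after median-ratio scaling (limma adjusted p = 0.176 and 0.13). Cx3cr1, the one marker under the filter, was near 0 in both groups, at 0.0365 to 0.0710 FPKM in LPS+ART, against 0.0667 to 0.147 FPKM in LPS+Vehicle. Of 8 markers of resident cardiac macrophages, 7 were tested, 4 were lower and 1, Timd4, was higher, and after median-ratio scaling 3 were lower and 2 higher, with sums of 19.3 to 29.7 FPKM in LPS+ART, against 36.2 to 53.1 FPKM in LPS+Vehicle. The share of resident markers called lower is near that of all genes. Pericyte and smooth muscle markers were lower for 6 of 7 tested, and for 2 after median-ratio scaling. Their sums were 135 to 190 FPKM in LPS+ART, against 209 to 280 FPKM in LPS+Vehicle. Of 8 endothelial markers 5 were lower and 1 higher, and after scaling 3 were lower and 3 higher. Of 5 monocyte markers tested 0 were lower and 1 higher, and after scaling 0 were lower and 2 higher. Macrophage number was not measured, and its part in the lower C1q was not tested.

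Relative to single macrophage genes, C1qa moved in both directions. C1qa/Csf1r, set against the receptor for the growth factor CSF1, was 3.80 to 7.04 in LPS+ART, against 7.93 to 9.79 in LPS+Vehicle, a log2 difference of -0.63 (exact permutation test, adjusted p = 0.0159 over 8 ratios). C1qa/Cd68, set against a lysosomal glycoprotein of macrophages, was 1.46 to 3.28 in LPS+ART, against 4.29 to 5.75 in LPS+Vehicle, a log2 difference of -1.24 (exact permutation test, adjusted p = 0.0159). Relative to either gene, C1qa was lower in all LPS+ART hearts than in any LPS+Vehicle heart. C1qa/Cd163 went the other way, at 8.59 to 45.5 in LPS+ART, against 5.22 to 6.68 in LPS+Vehicle, a log2 difference of 1.34 (exact permutation test, adjusted p = 0.0159). Cd163, the haemoglobin scavenger receptor of resident macrophages, was itself at 1.06 ± 0.664 FPKM in LPS+ART and 9.13 ± 2.29 FPKM in LPS+Vehicle. Against Adgre1, which encodes F4/80, the log2 difference was -0.40 and the groups overlapped (exact permutation test, adjusted p = 0.328).

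**Figure D2:**
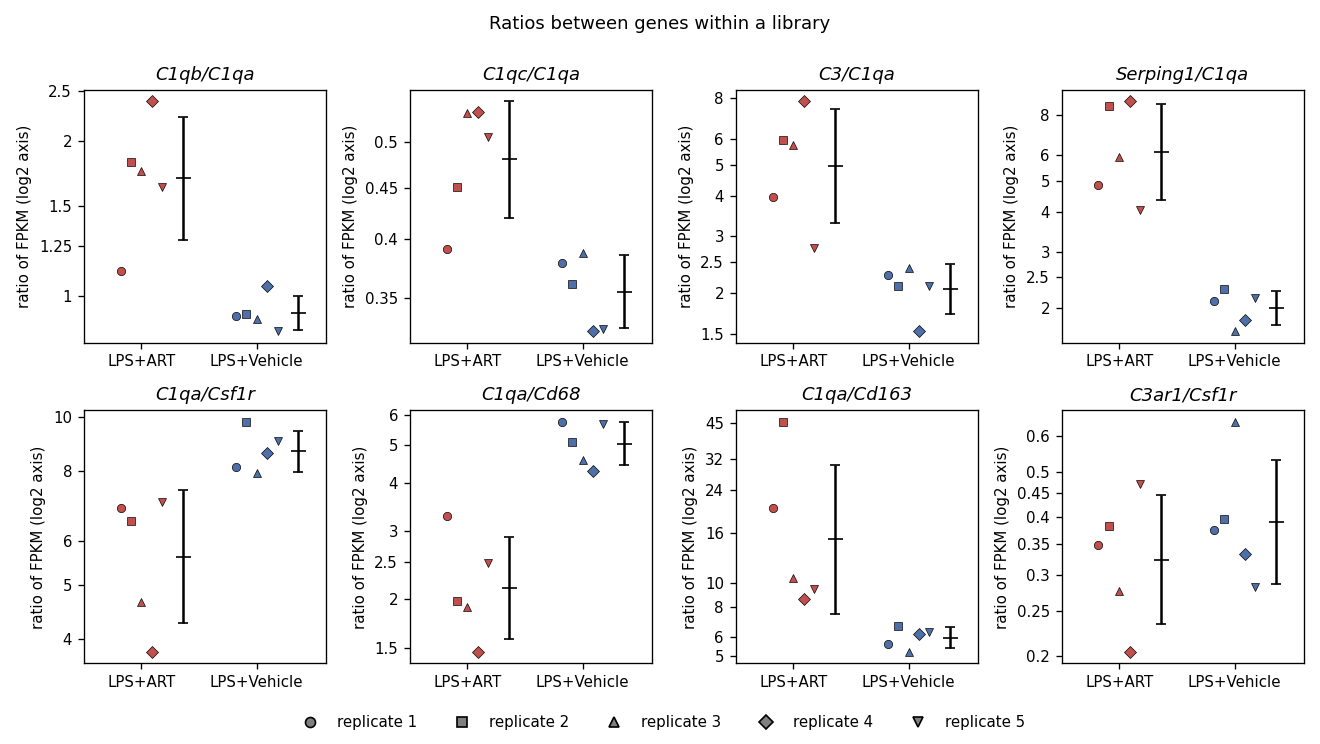
Each panel shows a ratio of 2 genes' FPKM within a library (log2 axis) on the y axis, LPS+ART in the left column and LPS+Vehicle in the right, with one marker shape per replicate and bars for the mean and SD of 5 log2 ratios. C1qb/C1qa, C1qc/C1qa, C3/C1qa, Serping1/C1qa and C1qa/Cd163 are higher in all LPS+ART hearts, C1qa/Csf1r and C1qa/Cd68 are lower in all of them, and C3ar1/Csf1r overlaps.

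C4 and C2, the substrates of C1s, were a gene with moderate level and a gene near the limit of the table. C4b (ENSMUSG00000073418) had 4.66, 5.34, 7.80, 4.58 and 5.46 FPKM in LPS+ART, against 8.36, 10.9, 12.0, 5.07 and 10.8 FPKM in LPS+Vehicle. LPS+Vehicle replicate 4 lay within the LPS+ART range, and the other 4 LPS+Vehicle hearts were above all LPS+ART hearts. The mean was 5.57 ± 1.31 FPKM in LPS+ART and 9.44 ± 2.79 FPKM in LPS+Vehicle, 1.70-fold lower in LPS+ART, with a log2 fold change of -0.64 (SE 0.20, limma adjusted p = 0.015). The call was lost after median-ratio scaling (-0.29, limma adjusted p = 0.211) and after cyclic loess (-0.30, limma adjusted p = 0.207). C4a, a near-identical copy with which C4b can share reads, was listed at 0.101 to 0.257 FPKM in LPS+ART, against 0.0743 to 0.160 FPKM in LPS+Vehicle, so the division of reads between them is uncertain. C2 (ENSMUSG00000024371) had 0.305, 0.413, 0.143, 0.248 and 0.162 FPKM in LPS+ART, against 0.352, 0.371, 0.343, 0.215 and 0.287 FPKM in LPS+Vehicle. The groups overlapped, C2 was under the filter of a mean of 0.5 FPKM and was not tested, and its values rest on 17 to 50 reads in LPS+ART, against 25 to 72 in LPS+Vehicle.

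C3 was, with Serping1, one of the members with the most RNA per length, at place 354 of the 30074 genes by mean level. It (ENSMUSG00000024164) had 72.5, 61.6, 66.7, 65.3 and 54.5 FPKM in LPS+ART, against 117, 115, 161, 62.4 and 118 FPKM in LPS+Vehicle. The LPS+ART hearts lay close together, and LPS+Vehicle replicate 4 lay among them while the other 4 were well above. The mean was 64.1 ± 6.67 FPKM in LPS+ART and 115 ± 34.9 FPKM in LPS+Vehicle, 1.79-fold lower in LPS+ART. The log2 fold change was -0.77 (SE 0.20, limma adjusted p = 0.0051), and -0.98 (limma adjusted p = 5.4e-05) without LPS+Vehicle replicate 4. Without LPS+Vehicle replicate 3, the highest, it was -0.64 (limma adjusted p = 0.0109). The call was lost after median-ratio scaling (-0.38, limma adjusted p = 0.103) and held after cyclic loess (-0.72, limma adjusted p = 0.010). Of 9 fibroblast markers, 5 were lower in LPS+ART in limma, a share near the 52.9% of all genes called lower. After median-ratio scaling 4 were lower, beside 30.1% of all genes. These 4 were Col1a1, Col1a2, Col3a1 and Pdgfra, with log2 fold changes of -2.24, -1.83, -1.98 and -1.15 as deposited. The sums overlapped, at 283 to 427 FPKM in LPS+ART, against 363 to 585 FPKM in LPS+Vehicle. Gsn and Dcn, which were not called, made up most of the sums. The part of fibroblasts in the C3 level was not tested.

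Factor B (Cfb, ENSMUSG00000090231), the protease of the alternative pathway, had 0.476, 0.543, 0.311, 0.447 and 0.608 FPKM in LPS+ART, against 0.494, 0.623, 0.542, 0.272 and 0.510 FPKM in LPS+Vehicle. The groups overlapped throughout and the mean was just under the filter, at 0.477 ± 0.112 FPKM in LPS+ART and 0.488 ± 0.131 FPKM in LPS+Vehicle, so the gene was not tested. Fitted without the filter, its log2 fold change was -0.01 (limma adjusted p = 0.94). In GENCODE M21 the gene Gm20547 overlaps 79.5% of the exon bases of Cfb and 42.8% of those of C2 on the same strand, and how the authors counted such reads is not given in the sources used here, which makes both low levels uncertain. Set against C3 within a library, Cfb was 1.70-fold higher in LPS+ART, a log2 difference of 0.77 with slight overlap (exact permutation test, adjusted p = 0.0381 over 12 pairs). It no longer passed with LPS+Vehicle replicates 2 and 5 averaged (exact permutation test, adjusted p = 0.0571), nor in several fits without 1 library, where the adjusted p reached 0.0762. C4b/C3 had a log2 difference of 0.06 (exact permutation test, adjusted p = 0.778), at 0.0643 to 0.117 in LPS+ART, against 0.0713 to 0.0948 in LPS+Vehicle.

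C1 inhibitor (Serping1, ENSMUSG00000023224) changed least of the tested members. It had 88.3, 88.4, 69.0, 73.5 and 79.9 FPKM in LPS+ART, against 108, 125, 114, 75.2 and 121 FPKM in LPS+Vehicle. As for C3 and C4b, LPS+Vehicle replicate 4 alone lay within the LPS+ART range. The mean was 79.8 ± 8.73 FPKM in LPS+ART and 109 ± 19.8 FPKM in LPS+Vehicle, 1.36-fold lower in LPS+ART, with a log2 fold change of -0.42 (SE 0.13, limma adjusted p = 0.016). After median-ratio scaling the change was -0.03 (limma adjusted p = 0.813), and after cyclic loess -0.38 (limma adjusted p = 0.0216). Without LPS+ART replicates 3 and 4, which stood apart in the neutrophil marker sum, it was -0.32 and no longer passed (limma adjusted p = 0.0987). Its ratio to the C1q A chain did not overlap: Serping1/C1qa was 4.84, 8.51, 5.93, 8.83 and 4.06 in LPS+ART, against 2.10, 2.29, 1.70, 1.84 and 2.16 in LPS+Vehicle. That ratio was 3.06-fold higher in LPS+ART with no overlap, and C3/C1qa was 2.39-fold higher, at 2.77 to 7.84 in LPS+ART, against 1.53 to 2.40 in LPS+Vehicle (exact permutation test, adjusted p = 0.0238 for each). Serping1/C4b overlapped, at 8.84 to 19.0 in LPS+ART, against 9.47 to 14.8 in LPS+Vehicle (exact permutation test, adjusted p = 0.267).

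The receptor for C3a, C3ar1 (ENSMUSG00000040552), had 0.924, 0.609, 0.689, 0.447 and 1.32 FPKM in LPS+ART, against 2.37, 2.21, 5.43, 1.57 and 1.74 FPKM in LPS+Vehicle. The groups did not overlap, and LPS+Vehicle replicate 3, the heart with the highest macrophage marker sum, was far above the others. The mean was 0.797 ± 0.338 FPKM in LPS+ART and 2.66 ± 1.58 FPKM in LPS+Vehicle, 3.34-fold lower in LPS+ART. The log2 fold change was -0.96 (SE 0.23, limma adjusted p = 0.0029), and -0.74 (limma adjusted p = 0.0011) without LPS+Vehicle replicate 3. The added 1 FPKM shrinks the change of so low a gene, and with 0.1 FPKM added it was -1.55. After median-ratio scaling C3ar1 was still lower (-0.74, limma adjusted p = 0.0113), as it was after cyclic loess (-0.63, limma adjusted p = 0.0249).

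The ratio of C3ar1 to Csf1r was 0.204 to 0.471 in LPS+ART, against 0.282 to 0.643 in LPS+Vehicle, with a log2 difference of -0.27 (exact permutation test, adjusted p = 0.454). C3ar1/Adgre1 had a log2 difference of -0.04 (exact permutation test, adjusted p = 0.865). C3ar1/Cd68 was lower in LPS+ART by a log2 difference of -0.88 with slight overlap (exact permutation test, adjusted p = 0.0381). That call was lost in most fits without 1 library, with an adjusted p of up to 0.0889, and without LPS+ART replicates 3 and 4 (exact permutation test, adjusted p = 0.190). C3ar1/Cd163 was higher by 1.70 without overlap (exact permutation test, adjusted p = 0.0159). C3ar1/C1qa and C3ar1/C3 did not pass (log2 differences of 0.36 and -0.90, exact permutation test, adjusted p = 0.262 and 0.0816), nor did C2/Cfb and C2/C4b (log2 differences of -0.37 and 0.34, exact permutation test, adjusted p = 0.267 and 0.468). In all, 6 of 12 pairs of members and 5 of 8 ratios to macrophage genes passed. The share of pairs of any other genes that would pass was not computed, so these counts have no background beside them. Ratios that share a gene are also not separate results. C1qb/C1qa, C1qc/C1qa, Serping1/C1qa and C3/C1qa all passed and hold C1qa, and C1qa/Cd163 and C3ar1/Cd163 both passed and hold Cd163. With the means of LPS+Vehicle replicates 2 and 5 as 1 replicate, 4 of the 12 pairs passed, among them C1qb/C1qa (log2 difference 0.85, exact permutation test, adjusted p = 0.0476).

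Counted together, 7 of the 9 members were tested and all 7 were lower in LPS+ART in limma, with 0 higher. This stands beside 52.9% of all tested genes called lower and 11.8% called higher, so a lower call was the commonest outcome over all genes too. The members' median log2 fold change was -0.96, against -0.27 over all genes. After median-ratio scaling 4 members were lower (C1qa, C1qb, C1qc and C3ar1), beside 30.1% of all genes lower and 30.1% higher, with a member median of -0.74. After cyclic loess 6 were lower, all but C4b, beside 28.7% of all genes lower and 29.0% higher, with a member median of -0.72. The groups did not overlap for 4 of the 7 as deposited (42.5% of all genes were lower without overlap) and for the same 4 after median-ratio scaling (23.1%).

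**Figure D3:**
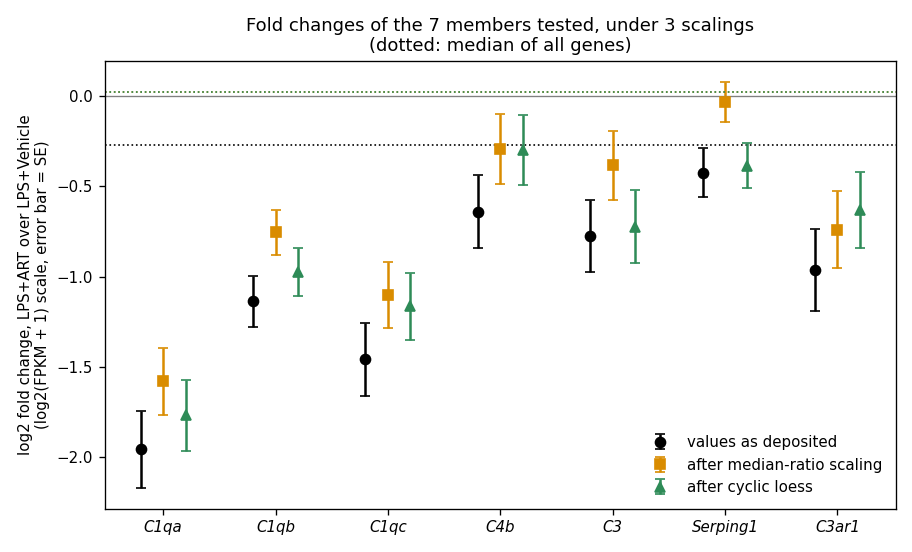
Points give the log2 fold change of LPS+ART over LPS+Vehicle on the log2(FPKM + 1) scale for the 7 tested genes, as deposited, after median-ratio scaling and after cyclic loess. Bars give the SE, and the dotted lines mark the median of all genes tested. All 7 genes are below 0 under each scaling. C1qa, C1qc, C1qb and C3ar1 keep their limma call under each, while Serping1 moves to -0.03 after median-ratio scaling.

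By mean level per length the members ran in LPS+Vehicle hearts from C3 (115 FPKM) and Serping1 (109 FPKM) through C1qa (53.9 FPKM), C1qb (49.7 FPKM), C1qc (19.3 FPKM), C4b (9.44 FPKM), C3ar1 (2.66 FPKM) and Cfb (0.488 FPKM) to C2 (0.314 FPKM). The ranges of neighbours in that order overlapped for C3 and Serping1, for C1qa and C1qb, for C4b and C3ar1, and for Cfb and C2. In LPS+ART hearts Serping1 (79.8 FPKM) stood above C3 (64.1 FPKM) and C1qb (22.3 FPKM) above C1qa (13.7 FPKM), and the other members kept their places. The ranges of neighbours there overlapped for every pair but C3 with C1qb and C4b with C3ar1.

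The other genes of the pathway come from 5 lists of 48 genes that leave out the 9. Of these, 45 were found and 21 passed the filter, and 12 were lower in LPS+ART and 0 higher in limma, with a median log2 fold change of -0.62. A lower call was made for 52.9% of all genes tested, so the share of lower genes is near that background. After median-ratio scaling 9 were lower and 2 higher (Cd59b and C1qbp), and after cyclic loess 9 were lower and 4 higher (also Fcna and Colec12). Mbl1, C8b and C9 were not analysed here, and 6 of the found genes had at most 3 reads in every library. Of the other recognition and initiation genes, of the classical and lectin routes, 1 of 6 tested fell. The proteases C1r and C1s of the C1 complex were not called: C1ra averaged 19.9 ± 3.82 FPKM in LPS+ART and 23.9 ± 3.17 FPKM in LPS+Vehicle (limma adjusted p = 0.11), and C1s1 averaged 14.1 ± 3.04 FPKM in LPS+ART and 18.5 ± 3.61 FPKM in LPS+Vehicle (limma adjusted p = 0.072). Masp1, a protease of the lectin pathway, averaged 4.63 ± 1.12 FPKM in LPS+ART and 5.24 ± 1.06 FPKM in LPS+Vehicle and was not called either (limma adjusted p = 0.40). The gene that fell was Colec11, a soluble lectin, at 0.539 ± 0.249 FPKM in LPS+ART and 3.61 ± 2.15 FPKM in LPS+Vehicle (log2 fold change -1.48, limma adjusted p = 0.00042), which is below the level set for naming and was chosen after its value was seen.

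Properdin (Cfp), which stabilises the alternative convertase, averaged 3.79 ± 0.672 FPKM in LPS+ART and 6.69 ± 2.27 FPKM in LPS+Vehicle (log2 fold change -0.64, limma adjusted p = 0.011), and it was no longer called after median-ratio scaling (limma adjusted p = 0.14). The terminal pathway, which builds the membrane pore, was thinly expressed: Hc, the gene of C5, had at most 2 reads in LPS+ART libraries and 7 in LPS+Vehicle libraries, C6 at most 5 in LPS+ART and 3 in LPS+Vehicle, and C8a at most 2 in either group. C7 fell, at 4.36 ± 1.29 FPKM in LPS+ART and 9.51 ± 2.85 FPKM in LPS+Vehicle (log2 fold change -0.96, limma adjusted p = 0.0020). C8g, a lipocalin subunit of C8, also fell, at 1.21 ± 0.0893 FPKM in LPS+ART and 1.93 ± 0.338 FPKM in LPS+Vehicle (log2 fold change -0.40, limma adjusted p = 0.0015). After median-ratio scaling C7 was still lower (limma adjusted p = 0.018) and C8g was not called (limma adjusted p = 0.13).

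Among the inhibitors other than Serping1, 3 of 6 tested genes fell, a share near the 52.9% of all genes called lower. Vitronectin (Vtn), which binds nascent terminal complexes, averaged 2.59 ± 0.602 FPKM in LPS+ART and 8.61 ± 3.70 FPKM in LPS+Vehicle (log2 fold change -1.35, limma adjusted p = 0.00040). Cr1l, the membrane regulator Crry, averaged 4.68 ± 0.336 FPKM in LPS+ART and 7.73 ± 0.776 FPKM in LPS+Vehicle (log2 fold change -0.62, limma adjusted p = 4.6e-05). The third was Cd55, which speeds decay of convertases, and all 3 were still lower after median-ratio scaling. Clusterin (Clu), the most abundant inhibitor gene at 456 ± 47.4 FPKM in LPS+ART and 539 ± 127 FPKM in LPS+Vehicle, was not called (limma adjusted p = 0.26). Nor was Cd59a, which blocks the pore, at 23.2 ± 5.93 FPKM in LPS+ART and 27.2 ± 4.19 FPKM in LPS+Vehicle (limma adjusted p = 0.20).

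**Figure D4:**
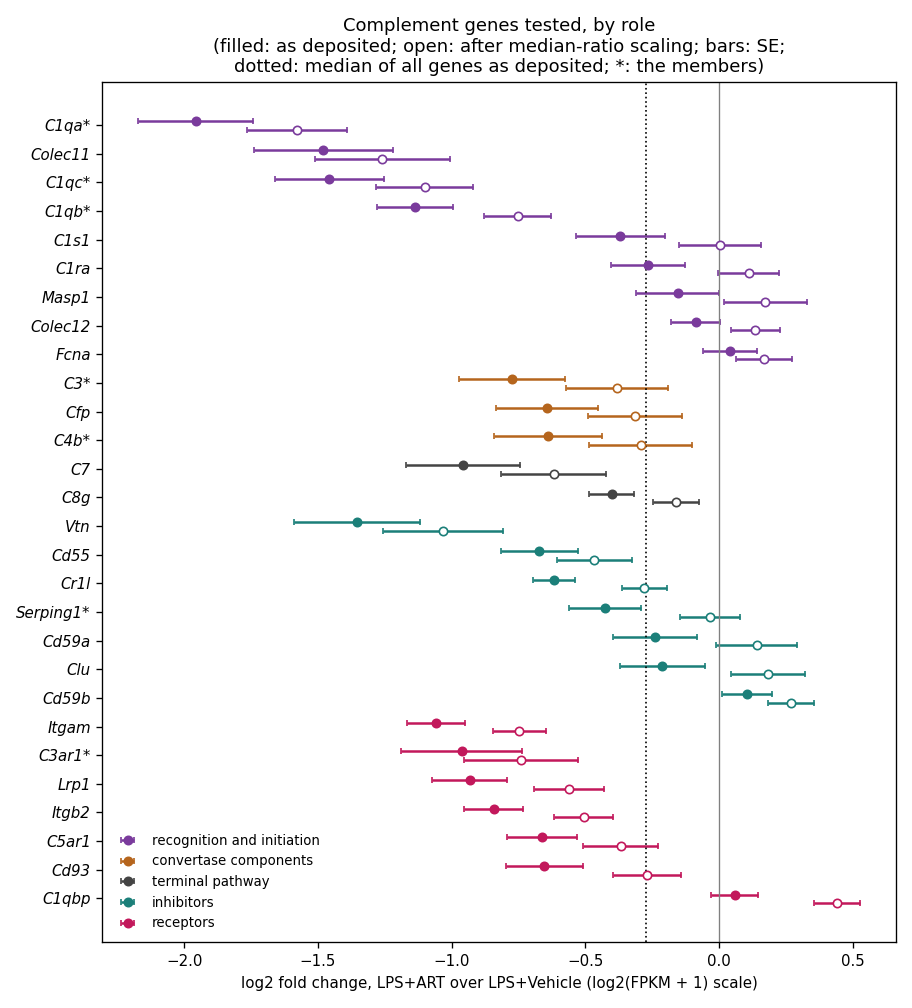
The x axis gives the log2 fold change of LPS+ART over LPS+Vehicle on the log2(FPKM + 1) scale for the 7 members and 21 other complement genes tested, grouped by role from top to bottom, with the members starred. Filled points are values as deposited, open points follow median-ratio scaling, bars give the SE and the dotted line marks the median of all genes as deposited. C1qa lies farthest left at -1.96, and C1qbp moves to 0.44 after scaling.

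Among the receptors other than C3ar1, 5 of 6 tested genes fell, and 4 of 6 after median-ratio scaling, beside 52.9% and 30.1% of all genes called lower. The chains of complement receptor 3 were lower, Itgam at 2.40 ± 0.430 FPKM in LPS+ART and 6.08 ± 0.844 FPKM in LPS+Vehicle (log2 fold change -1.06, limma adjusted p = 1.5e-05) and Itgb2 at 4.10 ± 0.501 FPKM in LPS+ART and 8.20 ± 1.30 FPKM in LPS+Vehicle (log2 fold change -0.84, limma adjusted p = 5.8e-05). Gm49368 overlaps 68.7% of the exon bases of Itgam, so its reads may be shared. Lrp1, a large endocytic receptor that binds C1q, averaged 11.5 ± 1.93 FPKM in LPS+ART and 23.0 ± 4.14 FPKM in LPS+Vehicle (log2 fold change -0.93, limma adjusted p = 0.00014). Cd93, an endothelial and myeloid membrane protein once described as a C1q receptor, averaged 26.7 ± 4.73 FPKM in LPS+ART and 42.8 ± 8.47 FPKM in LPS+Vehicle (log2 fold change -0.65, limma adjusted p = 0.0019), and its call was lost after median-ratio scaling (limma adjusted p = 0.091). The fifth was C5ar1, a receptor for C5a that is also on the macrophage list. C1qbp, a mainly mitochondrial protein that binds the C1q heads, averaged 33.0 ± 4.11 FPKM in LPS+ART and 31.5 ± 1.94 FPKM in LPS+Vehicle (log2 fold change 0.06, limma adjusted p = 0.58), and was called higher after median-ratio scaling (0.44, limma adjusted p = 0.0010).

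The genes with the pattern most like each member over the 10 libraries were found by the smallest root mean square difference of centred log2(FPKM + 1) values. For C1qa these were Fbh1 (0.15), Carns1 (0.16) and G0s2 (0.19), and its partner C1qc came in place 68 and C1qb in place 527 of 13313 genes. For C1qb they were Mgll, Ptms and Hic1, and for C1qc Smim5, Adgrl4 and Cxxc5. Seen from C1qb, C1qc came in place 640 and C1qa in place 5935. Seen from C1qc, C1qb came in place 105 and C1qa in place 334. The measure does not rescale the size of a change, which differed between the chains, so these places reflect size as well as shape. For C3ar1 the nearest genes were Aif1 (0.18), a macrophage marker, Siglec1 (0.19), a macrophage lectin, and Mblac2 (0.19). For C3 they were Castor2, Lst1 and Pilra, for C4b Klhl13, Sorl1 and Apod, and for Serping1 Eef1akmt4, Cir1 and Coq8b. For C2 they were Pibf1, Cryz and Nek7, and for Cfb Sap30l, Fth1 and Reep3. C2 and Cfb varied little on this scale (own root mean square deviations of 0.0975 and 0.1094), so nearness to them says little.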

How the data were processed

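Heart RNA of 10 mice was selected with oligo-dT and sequenced as read pairs, per the labels' protocols. The deposited values are FPKM, as judged from the values, since the header names only the samples, and had not been rescaled between libraries. The genome build is mm9, per the submitters' processing notes. For the aligner, the counting program, its annotation and its strand rule the sources used here give nothing, so no coordinates of expression values are printed. Of 30074 identifiers 29538 were found in GENCODE M21, and 29005 of these (98.2%) gave whole reads within 0.01 read. Groups and replicates follow the treatment labels and titles. That replicates are separate mice rests on the design's group sizes, so p-values reflect library-to-library spread, which may be technical in part.

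FPKM was tested with limma-trend 3.58.1 (R 4.3.3) on log2(FPKM + 1), 10 libraries, group as the only term, genes averaging 0.5 FPKM or more, and Benjamini-Hochberg adjusted p under 0.05 over all genes tested. This scale understates changes of low genes, and folds in words are ratios of mean FPKM, or of geometric means for ratios of genes. Ratios within a library were tested with an exact two-sided permutation test in Python 3.11.15, adjusted over 12 and 8 ratios. The limma fit was tested on simulated data, and the permutation routine on small sets of numbers with known answers. Alternatives were median-ratio scaling, cyclic loess, other pseudocounts and filters, a replicate block, limma-voom on recovered reads, and libraries left out or averaged.

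The members and lists were chosen with earlier results of these data known. All members are named, other complement genes where they passed the filter with at least 5 FPKM in either group, the terminal pathway and C4a, and 3 nearest genes per member. Protein sequences were not compared. RefSeq promoters were matched by symbol for 4 of 9 members. A few listed genes are not reported here.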

Additional observations from a re-analysis of the deposited data

Results flagged for a closer look

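In 86 groups of 5 values (members, named complement genes and ratios), 7 had a highest or lowest library whose gap to the nearest other, over the group's range, was above the critical value of 0.710 (Dixon's test), where chance gives about 5%. C1qb was 32.1 FPKM in LPS+ART replicate 5, against 18.9 to 20.4 FPKM in the other LPS+ART libraries. C4b was 7.80 FPKM in LPS+ART replicate 3, against 4.58 to 5.46 FPKM in the others of its group. C3ar1 was 5.43 FPKM in LPS+Vehicle replicate 3, against 1.57 to 2.37 FPKM. C1ra was lowest in LPS+Vehicle replicate 4, at 18.4 FPKM against 24.8 to 26.3 FPKM, and C1qbp highest there, at 34.9 FPKM against 30.1 to 31.2 FPKM. The ratio C1qa/Adgre1 was 4.01 in LPS+Vehicle replicate 3, against 7.47 to 8.68, and C3ar1/Cd163 was 2.67 in LPS+ART replicate 2, against 0.461 to 1.02 in the other LPS+ART libraries.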

How the results depend on the processing

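Members called lower were 4 after median-ratio scaling, against 7 as deposited; C3, C4b and Serping1 lost the call there, and C4b also after cyclic loess (limma). Other complement genes called higher were 2 after median-ratio scaling and 4 after cyclic loess, against 0. Over all genes, 4004 and 3856 were called higher and 4014 and 3827 lower under these scalings, against 1565 higher and 7037 lower. No member and no ratio reversed its direction past its threshold in the alternatives run. Some other genes did, such as Colec12. Its log2 fold change was -0.086 as deposited (limma adjusted p = 0.427) and 0.227 after cyclic loess (limma adjusted p = 0.0448). Leaving out each library in turn kept 7 members lower, 12 to 15 other complement genes lower, 4 to 7 of the 12 member ratios called and 4 to 5 of the 8 ratios to macrophage genes. Without LPS+Vehicle replicates 3 and 4, an alternative chosen after seeing the data, 7 members were lower and 0 of the 12 ratios passed, C1qb/C1qa among them (log2 difference 0.91, exact permutation test, adjusted p = 0.0714), where 5 against 3 libraries limit how small p can be. Same-numbered hearts share only a number: their correlations of deviations ran from -0.070 to 0.182. With the replicate block, 7 members were lower, as were 6945 of all genes, with 1533 higher, and 0 of the 12 ratios passed; 5 pairs allow no p below 0.0625, and the lowest adjusted p was 0.125. Read depth limits C2 and Cfb, at 83 reads or fewer per library.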
